A study of Mus musculus with 8 samples.

Results

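Complement and blood clotting are protein cascades of the plasma, and most of their components are made by hepatocytes. The 38 genes described here were chosen by symbol from the 22013 genes of the deposited table, and each was found as 1 row. They comprise 18 complement genes and 20 genes of clotting, its inhibitors and the breakdown of fibrin. Serping1, whose product inhibits proteases of both systems, was counted with complement. Of the 38, 37 had enough counts to be tested (17 complement and 20 clotting genes), and Cfd had not.

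The libraries were poly(A)-selected RNA from mouse liver, 4 labelled control and 4 labelled resmetirom, a drug that activates the thyroid hormone receptor, preferring its liver-rich beta type. The series describes a diet of fructose, palmitate and cholesterol, fed for 12 weeks as a model of steatohepatitis, a fatty liver disease with inflammation. Resmetirom was given by intraperitoneal injection at 5 mg/kg/day after week 4 for 8 weeks, dissolved in a vehicle with 0.4% Tween-80 and 0.5% carboxymethyl cellulose-sodium. What the control mice ate and whether they received vehicle is not labelled, so drug, diet and injection cannot be told apart, and the labels name no strain, age or sex. The labels do not say whether each library came from a separate mouse, so the p-values describe only how these libraries vary, which may be technical.

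Complement runs from recognition (mannose-binding lectins, C1) through the C3 convertases, which cleave C3, to the terminal components C5 to C9, which assemble into a pore in the target membrane. Clotting runs from the contact factors and factor VII to thrombin, which turns fibrinogen into fibrin. Antithrombin and protein C hold clotting back, and plasmin dissolves the clot. In mice, terminal complement activity is known to be lower in females than in males. The Y-linked transcript Ddx3y was at 41.7 to 73.0 CPM (counts scaled to a common library total) in the control and 48.6 to 67.4 CPM in the resmetirom libraries, so all 8 held RNA from male mice.

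The counts per library summed to 16787561 to 19887539. The genes of the major urinary proteins (Mup) took 4.32% to 7.05% of all counts in the control libraries, 7.54% in resmetirom replicate 1 and between 17.8% and 25.1% in the other 3 resmetirom libraries. Levels below are CPM scaled by TMM factors (edgeR's trimmed mean of M values), which estimate a library's scale from the bulk of genes and were 1.08 to 1.16 for the controls, 1.06 for resmetirom replicate 1 and 0.804 to 0.879 for its other replicates. With TMM factors the 12207 tested genes had a median log2 fold change, resmetirom minus control, of -0.0043. Scaling by library sizes only moved it to -0.31, or to -0.12 once the Mup genes were removed. On the log2(TPM + 1) scale it was -0.41, and with a pseudocount of 0.1 it was -0.50 (TPM, a transcript level that corrects for gene length). Fold changes below use the TMM factors. Where a member's call differs on another scale this is stated, often but not always with its value, and at times only for the log2(TPM + 1) scale. Signs depended on the scaling more widely. Of the 37 tested members 24 were above 0 with TMM factors, 19 by library sizes only without the Mup genes and 7 by library sizes only, and only F11, Klkb1 and Serpinf2 were above 0 on both TPM scales. The 21 that turned below 0 on the log2(TPM + 1) scale lay between -0.46 and -0.054 there: C8g, Serpinc1, C3, Cfb, C4bp, Mbl1, Mbl2, Masp1, Masp2, Fga, Fgb, Fgg, F13b, F2, F5, F7, F10, F12, Plg, Pros1 and Serpind1. The hepatocyte markers Alb, Apoa1, Ttr, Tat, Hnf4a and Cps1 summed to 67998 to 76988 CPM in the control and 87888 to 95032 CPM in the resmetirom libraries, with 2 of the 6 (Tat and Cps1) called higher. Most of this sum was Alb, which was not called, at means of 58272 CPM in the control and 73186 CPM in the resmetirom libraries. Ttr and Hnf4a overlapped between the groups. The shift also depended on the scaling. Mean TPM was lower in the resmetirom libraries for Alb (53357 in the control against 47625), Apoa1, Ttr and Hnf4a, and higher for Tat and Cps1. The part of this shift in the results below was not tested. In RNA from whole liver, fewer cells of a type and less RNA per cell cannot be told apart.

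Levels per length spanned a wide range. By mean TPM over the 8 libraries, Fgg was the most abundant member at 2758 TPM and ranked 50 in the whole table, followed by Fga at 2296 TPM and Serpinc1 at 1662 TPM. The complement genes with the highest levels were C3 at 1066 TPM, Cfb at 527 TPM and Serping1 at 385 TPM. Of the 37 tested members 28 were among the 1000 most abundant genes. F11 had the lowest level of the tested members, at 11.9 TPM, and Cfd was lower still. All members together took 2.40% to 2.80% of all counts in the control libraries and 1.99% to 2.73% in the resmetirom libraries, which overlap. Leaving the Mup genes out of the total, the shares were 2.53% to 2.97% and 2.42% to 3.25%.

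**Figure D1:**
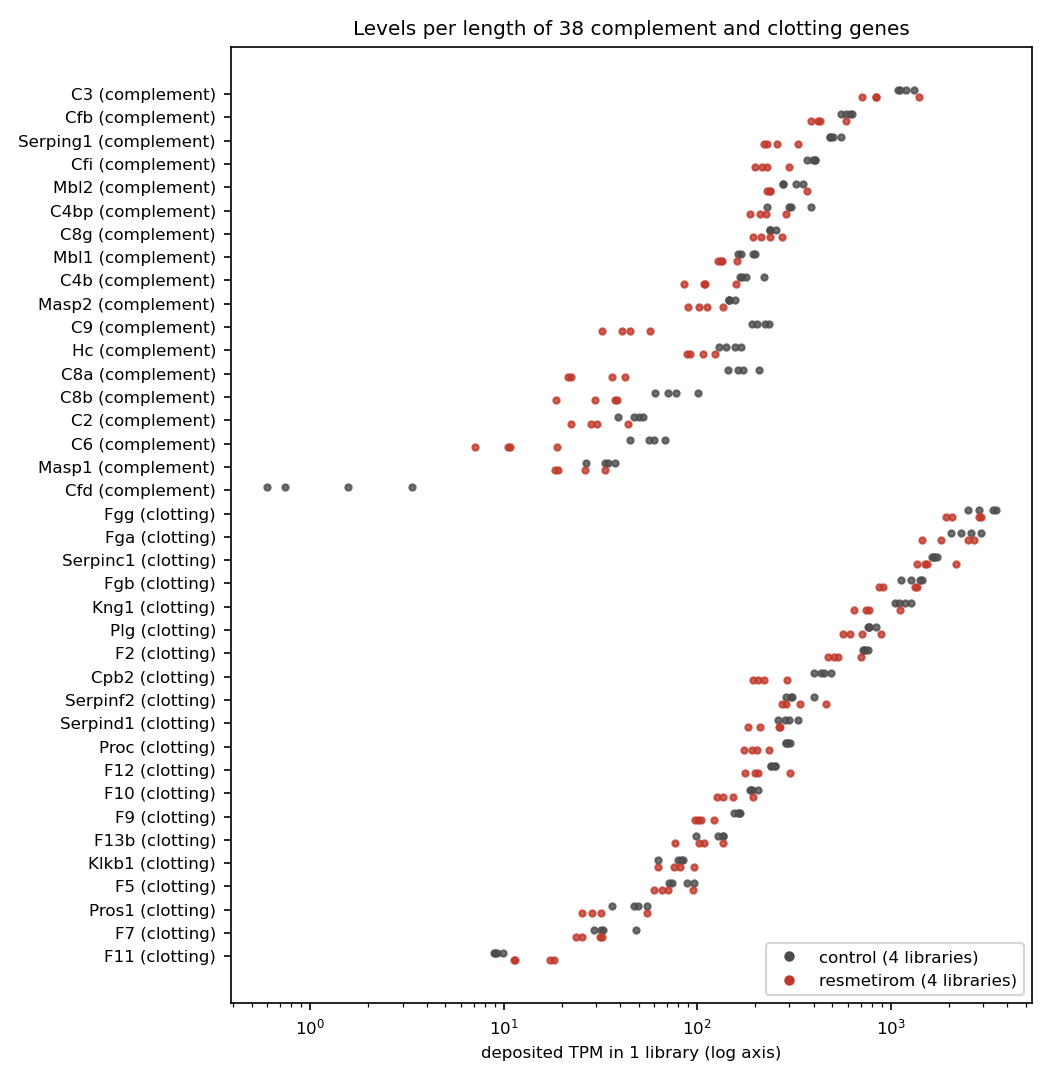
Deposited TPM of the 38 members, with 1 point per library on a log axis, control in grey and resmetirom in red, sorted by mean TPM within complement and within clotting. Means of the 37 tested members run from F11 at 11.9 TPM to Fgg at 2758 TPM, and Cfd, at a mean of 0.780 TPM, has no red points because it is listed at 0 in all 4 resmetirom libraries.

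In the resmetirom libraries 3 genes of the terminal complement pathway, C6, C8a and C9, fell by 1.76 to 1.93 on the log2 scale, while C8g rose by 0.42. Outside that group none of the 11 tested complement genes was called higher by the rule below, though 7 had changes above 0. The C1 inhibitor gene Serping1 fell by 0.48. Among the clotting genes F11 rose by 1.14, Serpinf2 by 0.58, Klkb1 by 0.53 and Serpinc1 by 0.41, and Cpb2 fell by 0.47. A gene was called where its Benjamini-Hochberg adjusted p in edgeR's quasi-likelihood test, over all 12207 tested genes, was under 0.05. By this rule 5 members were higher and 5 lower, 27.0% of the 37 tested, against 4.59% of all tested genes (2.6% higher and 1.99% lower). The 2 groups of libraries did not overlap in 14 of the 37 members, 37.8%, against 11.8% of all tested genes (6.32% higher and 5.5% lower). Of these 14, 6 were complement and 8 clotting genes. The members were chosen with earlier results of these data known, and most are abundant genes. These shares therefore describe the members and are no independent test of them. The balance of calls depended on the scaling: 43.4% of all calls were lower with TMM factors and 92.9% with library sizes only, where 1 member was called higher and 10 lower.

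By system, complement had 1 higher and 4 lower of 17 tested, and clotting had 4 higher and 1 lower of 20. The median change was -0.034 for complement and 0.21 for clotting, beside -0.0043 for all genes. With library sizes only, these medians were -0.35, -0.098 and -0.31. The clotting median was also below 0 on the log2(TPM + 1) scale, at -0.28, where that of all genes was -0.41. The difference of the medians, complement minus clotting, was -0.25. The 19 alternatives were 11 other settings of scaling, filter, test or unit and 8 fits that left out 1 library each. Over those 8 fits the difference lay between -0.31 and -0.20. The other settings gave -0.25 to -0.24. A change of library scale moves all fold changes nearly alike, so it largely cancels in this difference. Without the 6 terminal components the median of the other 11 tested complement genes was 0.077. Moving Serping1 to clotting gave 1 higher and 3 lower of 16 for complement and 4 higher and 2 lower of 21 for clotting. The summed CPM of complement per summed CPM of clotting genes was 0.465 to 0.563 in the control and 0.373 to 0.468 in the resmetirom libraries, a ratio within each library that no scaling alters. These ranges overlapped. The same ratio of summed TPM was 0.333 to 0.386 in the control and 0.256 to 0.318 in the resmetirom libraries, which did not. Both sums weigh most on abundant genes that were not called, C3 in complement and Fga, Fgb and Fgg in clotting. From control to resmetirom the mean summed CPM went from 7854 to 7624 for complement and from 15401 to 18001 for clotting. The lowest CPM ratio was in resmetirom replicate 3, where clotting genes summed to 22013 CPM and Fga alone was at 5094 CPM.

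**Figure D2:**
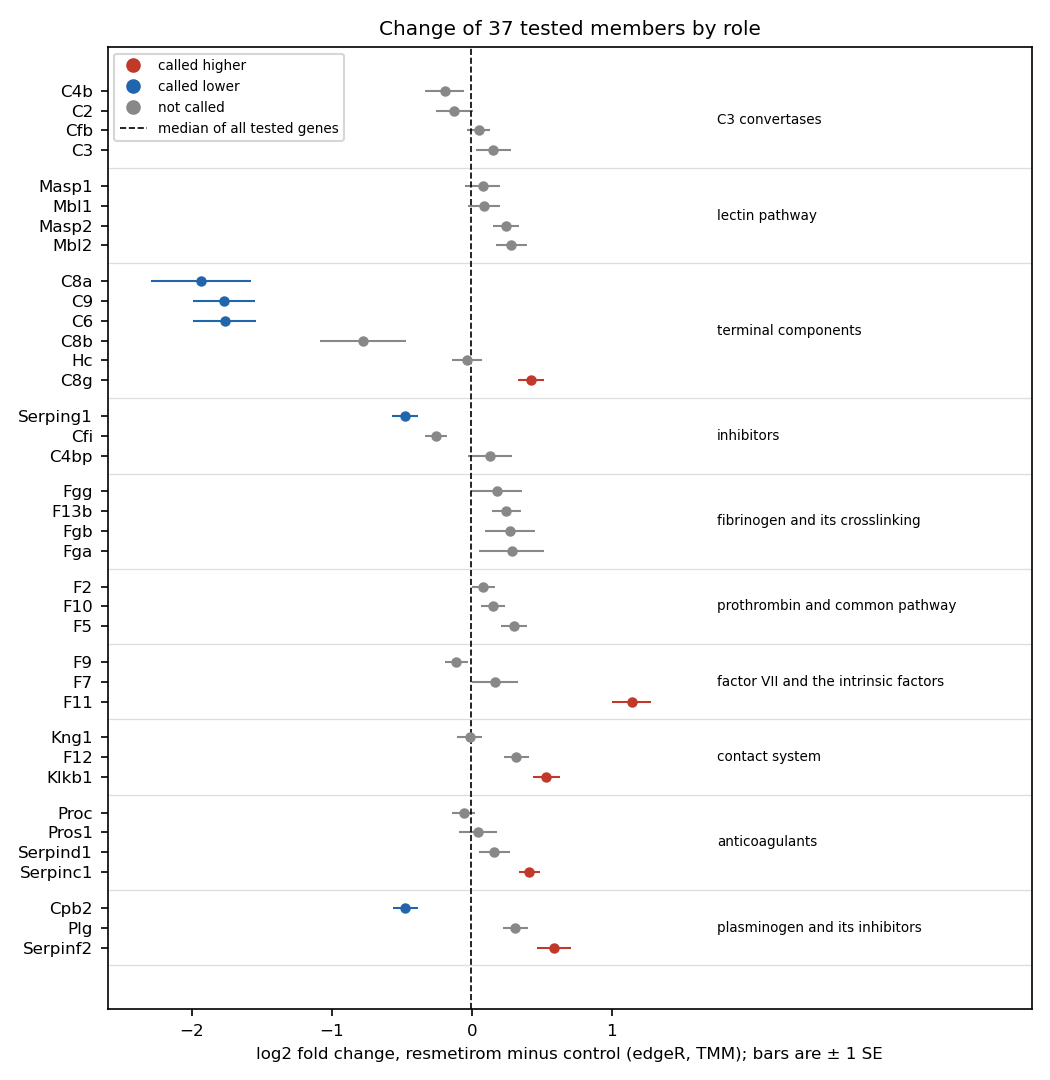
Log2 fold change (resmetirom minus control, edgeR with TMM factors) of the 37 tested members, grouped by role, with bars of 1 SE and the median of all tested genes as a dashed line. C8a, C9 and C6 lie near -1.8 to -1.9, F11 lies at 1.14, and the 27 members that were not called lie between -0.78 and 0.32; scaled by library sizes only, the dashed line would lie at -0.31, 17 of the 24 points above 0 would turn below 0 and Klkb1, Serpinc1, Serpinf2 and C8g lose their calls.

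The terminal components assemble in the order C5, C6, C7, C8 and C9. C6 (ENSMUSG00000022181, chr15:4727175-4814967 of GRCm38, plus strand) encodes the component that binds cleaved C5. It was at 102, 84.9, 63.6 and 81.4 CPM in control replicates 1 to 4 and at 32.5, 23.1, 26.8 and 15.3 CPM in resmetirom replicates 1 to 4. Every control library was above every resmetirom library. The change was -1.76 (SE 0.22, adjusted p = 0.00174), and it was called in all 19 alternatives.

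C9 (ENSMUSG00000022149, chr15:6445327-6498751, plus strand) encodes the component that polymerises into the wall of the pore. Its levels were 255, 222, 197 and 241 CPM in the control and 49.6, 67.9, 101 and 50.6 CPM in the resmetirom libraries. All control libraries lay above all resmetirom libraries, of which replicate 3 was highest. C9 changed by -1.77 (SE 0.22, adjusted p = 0.00203) and was called in all 19 alternatives.

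The component C8 is built from 3 chains with a gene each, and their changes ran from -1.93 to 0.42. C8a (ENSMUSG00000035031, chr4:104815679-104876398, minus strand), which encodes the alpha chain, was at 345, 406, 265 and 287 CPM in the control and 43.9, 101, 134 and 62.5 CPM in the resmetirom libraries. The groups did not overlap, but the resmetirom libraries spread widely, with a coefficient of variation of 47.0% against 19.5% in the control libraries. C8a changed by -1.93 (SE 0.36, adjusted p = 0.0246). Leaving out any control library, or resmetirom replicate 2 or 4, moved its adjusted p above the threshold, to 0.0616, 0.0671, 0.0525 and 0.0639 without control replicates 1 to 4 and to 0.0545 and 0.0808 without resmetirom replicates 2 and 4. The fold change was -2.24 to -1.72 over the 8 fits that left out 1 library each.

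C8b, which encodes the beta chain and lies 11.1 kb from C8a with no protein-coding gene between them, was at 98.0, 125, 70.7 and 80.3 CPM in the control libraries. The resmetirom libraries were at 39.7, 67.3, 78.1 and 32.9 CPM, so the highest of them overlapped the control range. C8b was not called, at -0.78 (SE 0.31, adjusted p = 0.238), but was called with DESeq2 (adjusted p = 0.0448), on the TPM scales and by library sizes only (adjusted p = 0.0175). In the resmetirom group the 3 genes C8a, C8b and C9 all had replicate 3 highest and replicate 2 next.

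C8g (ENSMUSG00000015083, chr2:25498651-25501719, minus strand) encodes the gamma chain, a protein of the lipocalin family. It was at 155, 152, 155 and 139 CPM in the control and 189, 178, 221 and 216 CPM in the resmetirom libraries, so all resmetirom libraries were higher. The change was 0.42 (SE 0.092, adjusted p = 0.0204), and -0.088 with no call on the log2(TPM + 1) scale. Leaving out control replicate 4 ended its call (adjusted p = 0.0879), as did leaving out resmetirom replicate 3 (adjusted p = 0.0568) or 4 (adjusted p = 0.0759). Scaling by library sizes only gave 0.11 (adjusted p = 0.469), and doing so after removal of the Mup genes gave 0.31 (adjusted p = 0.0568). Within each library, which no scaling affects, the TPM of C8g per TPM of C8a was 1.15 to 1.78 in the control and 5.00 to 12.7 in the resmetirom libraries. The TPM of C8b per TPM of C8a was 0.420 to 0.487 in the control and 0.841 to 1.38 in the resmetirom libraries. Neither ratio overlapped between the groups. Hc, which encodes C5, was at 436 ± 50.5 CPM (SD, n = 4) without and 425 ± 41.7 CPM (SD, n = 4) with resmetirom, a change of -0.034 (SE 0.10, adjusted p = 0.920), although it was called lower on the log2(TPM + 1) scale, at -0.53 (adjusted p = 0.0176). C7, which was not among the 38 genes, had a control mean of 0.932 CPM and was not called.

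**Figure D3:**
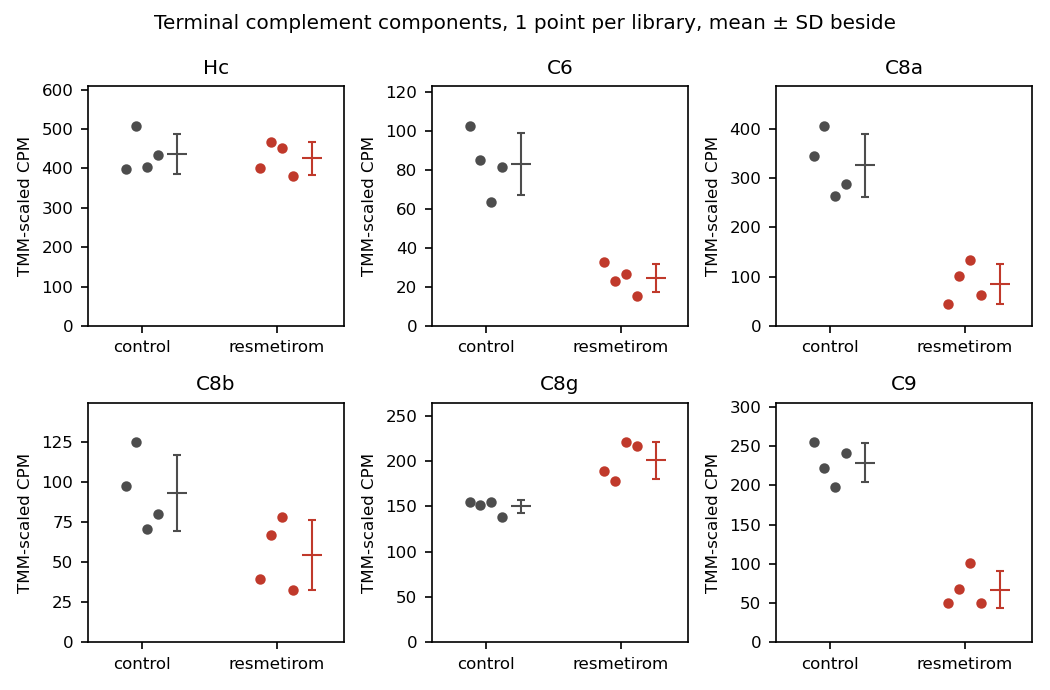
TMM-scaled CPM of the 6 terminal complement genes, with 1 point per library in the order of the replicate numbers and the mean ± SD (n = 4) beside each group, on axes that start at 0. The control and resmetirom points of C6, C8a and C9 are fully apart and lower with resmetirom, those of C8g are apart and higher on this scale (not on TPM), and those of Hc and C8b overlap.

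The start regions of the 3 terminal component genes that were called lower are shown as background. They are RefSeq sequences of GRCm38.p6, from 250 bases before to 50 after the annotated start, read 5′ to 3′ on the gene's strand, and 29 of the 38 members had an entry. Capitals mark matches on either strand to TTCNNNGAA (bound by STAT5), AGGTCA (the core of a thyroid hormone receptor element), TGTTTAC (FOXA) or TTGCNNAA (C/EBP).
C6, chr15:4726960-4727259, plus strand: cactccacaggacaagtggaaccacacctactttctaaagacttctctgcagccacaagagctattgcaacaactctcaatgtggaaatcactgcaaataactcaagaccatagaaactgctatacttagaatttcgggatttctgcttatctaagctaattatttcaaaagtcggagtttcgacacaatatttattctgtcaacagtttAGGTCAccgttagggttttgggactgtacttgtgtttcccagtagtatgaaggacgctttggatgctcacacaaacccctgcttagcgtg
C8a, chr4:104876349-104876648, minus strand: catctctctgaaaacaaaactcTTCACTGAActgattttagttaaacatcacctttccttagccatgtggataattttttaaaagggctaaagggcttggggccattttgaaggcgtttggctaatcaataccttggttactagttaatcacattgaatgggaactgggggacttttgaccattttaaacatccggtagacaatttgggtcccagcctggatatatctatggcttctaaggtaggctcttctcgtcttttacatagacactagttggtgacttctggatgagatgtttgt
C9, chr15:6445096-6445395, plus strand: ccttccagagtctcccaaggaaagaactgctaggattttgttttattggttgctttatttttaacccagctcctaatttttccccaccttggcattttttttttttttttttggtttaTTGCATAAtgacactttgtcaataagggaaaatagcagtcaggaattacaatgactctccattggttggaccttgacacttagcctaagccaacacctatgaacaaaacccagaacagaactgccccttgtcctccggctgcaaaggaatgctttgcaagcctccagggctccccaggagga
The 3 windows shared no motif. C6 held AGGTCA at position -40, C8a held TTCNNNGAA at -228, and C9 held TTGCNNAA at -132, where -1 is the base before the start. AGGTCA occurred in 12 of the 29 members, counted by gene with a match in any of its windows. Of all 32851 windows of this length, counted singly, 16.3% held it. TTCNNNGAA occurred in 6 of 29 members and 8.30% of all windows, and TTGCNNAA in 9 of 29 and 10.8%. A gene can have a further window, as C8g did, so the shares of members and of windows differ in unit. Among the called members, matches ran across directions. AGGTCA was also in the window of Serpinf2, which was called higher. TTGCNNAA was also in windows of Cpb2, called lower, and of Serpinc1, F11 and Klkb1, called higher. All of these are matches of letters, not measured binding.

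Upstream of the terminal components, none of the 8 tested genes of the C3 convertases and the lectin pathway was called. C3, the protein on which all routes converge, was at 3056, 3745, 3021 and 3143 CPM in the control and 4228, 3461, 3876 and 2871 CPM in the resmetirom libraries. The groups overlapped, and the change was 0.15 (SE 0.13, adjusted p = 0.605). Cfb, the protease of the alternative convertase, was at 849, 900, 768 and 811 CPM in the control and 898, 833, 892 and 822 CPM in the resmetirom libraries. Its change of 0.050 (SE 0.084, adjusted p = 0.830) was the smallest of this group, and it was called lower on the log2(TPM + 0.1) scale, at -0.40. C2 and C4b, which form the classical convertase, had -0.12 and -0.19, and both were called lower on the TPM scales, C4b also with library sizes only (-0.49, adjusted p = 0.0424). C4b reads could be shared with the near-identical C4a, which stood at 3.28 CPM in the control libraries against 534 CPM for C4b. The lectin genes Mbl1 and Mbl2, which encode sugar-binding recognition proteins, had 0.088 and 0.28, and their protease genes Masp1 and Masp2 had 0.077 and 0.25. On the log2(TPM + 1) scale Mbl1 and Masp2 were called lower, at -0.38 and -0.45.

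Cfd encodes factor D, which activates factor B and is made mainly by adipocytes. It had 36, 16, 6 and 7 counts in the control libraries and 0 in every resmetirom library. Against a floor of 3 counts over the resmetirom group it was at least 16.2-fold lower, a bound that covers counting error only. Control replicate 1 held 36 of the 65 control counts, and without it the bound was 9.67-fold. It failed the count filter, and without a filter edgeR called it lower (adjusted p = 0.0116). The adipocyte markers Adipoq, Retn and Lep had 0 counts in all 8 libraries, and Plin1 had 3 counts in the control and 0 in the resmetirom group. Fabp4, also expressed in endothelial cells, fell from 17.2 to 8.63 CPM (adjusted p = 0.00413). The 6 adipocyte markers, which include Cfd, summed to 15.8 to 20.8 CPM in the control and 6.04 to 10.1 CPM in the resmetirom libraries. Without Cfd the sums were 15.5 to 19.1 CPM and the same resmetirom values. Fabp4 alone made up most of the control sums and all of the resmetirom sums. The part of these markers in the result was not tested.

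Of the complement inhibitors, Serping1 (ENSMUSG00000023224, chr2:84765387-84775444, minus strand) encodes the C1 inhibitor, which blocks C1r, C1s, the lectin pathway proteases, factor XIIa and plasma kallikrein. Its levels were 487, 544, 468 and 436 CPM in the control and 353, 365, 367 and 307 CPM in the resmetirom libraries. Every resmetirom library was below every control library, with a change of -0.48 (SE 0.095, adjusted p = 0.0129) that was called in all 19 alternatives. Cfi encodes factor I, the protease that degrades C3b and C4b. It was at 435, 464, 444 and 417 CPM in the control and 369, 380, 373 and 352 CPM in the resmetirom libraries. These did not overlap, but Cfi was not called, at -0.25 (SE 0.076, adjusted p = 0.0872). It was called lower with DESeq2 (adjusted p = 0.0266) and with library sizes only, with or without the Mup genes, and on the TPM scales. C4bp, whose product binds C4b, had 0.13 (SE 0.16) and overlapped between groups.

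The clotting genes that were called higher lay in the contact and intrinsic part of the cascade and among the inhibitors. F11 (ENSMUSG00000031645, chr8:45241174-45262031, minus strand) encodes factor XI, which activates factor IX. It was at 11.4, 11.4, 10.4 and 11.3 CPM in the control and 24.2, 31.1, 22.8 and 20.1 CPM in the resmetirom libraries. The control libraries lay close together and every resmetirom library was well above them. The change was 1.14 (SE 0.14, adjusted p = 0.000613), the largest rise among the members, and it was called in all 19 alternatives, with 0.57 as its lowest value, on the log2(TPM + 1) scale.

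Klkb1 (ENSMUSG00000109764, chr8:45266689-45294859, minus strand), the neighbour of F11 on the same strand at a distance of 4.7 kb, encodes plasma prekallikrein, a close relative of factor XI. It was at 185, 239, 218 and 227 CPM in the control and 303, 343, 297 and 315 CPM in the resmetirom libraries. The groups did not overlap, and the change was 0.53 (SE 0.095, adjusted p = 0.00639). It was not called with library sizes only, at 0.22 (adjusted p = 0.204), nor at 0.031 in log2(TPM + 1) units (adjusted p = 0.868). The annotation holds a further gene, Gm45753, over most of Klkb1 on the same strand, and it was at 0.348 CPM in the control and 0.212 CPM in the resmetirom libraries. Other called members overlap a gene on the opposite strand, C8a over 1809 bases, C8g over 970 bases and Serpinc1 over 2942 bases of protein-coding genes, and the sources used here do not give the strand handling of the counting. The start regions of F11 and Klkb1, which rose as neighbours, follow, with the same motifs in capitals.
F11, chr8:45261982-45262281, minus strand: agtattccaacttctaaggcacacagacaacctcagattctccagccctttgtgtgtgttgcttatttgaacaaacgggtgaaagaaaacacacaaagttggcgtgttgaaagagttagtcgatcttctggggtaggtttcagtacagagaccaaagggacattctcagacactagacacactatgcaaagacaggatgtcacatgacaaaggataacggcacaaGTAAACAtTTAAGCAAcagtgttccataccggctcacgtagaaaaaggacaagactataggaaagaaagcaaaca
Klkb1, chr8:45294786-45295085, minus strand: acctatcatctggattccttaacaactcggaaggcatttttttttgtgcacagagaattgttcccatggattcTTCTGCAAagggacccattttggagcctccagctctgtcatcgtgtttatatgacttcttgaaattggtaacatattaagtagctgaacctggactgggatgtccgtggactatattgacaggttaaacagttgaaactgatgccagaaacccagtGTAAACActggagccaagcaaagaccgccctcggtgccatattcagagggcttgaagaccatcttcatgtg
F11 held TGTTTAC at -25 and TTGCNNAA at -17, and Klkb1 held TGTTTAC at -21 and TTGCNNAA at -177, all on the opposite strand. TGTTTAC occurred in 3.65% of all windows, counted singly. Counted by gene, only F11 and Klkb1 of the 29 members with an entry held it.

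The other contact genes were not called with TMM factors. F12, which encodes the factor XII that starts the contact route, was at 280, 272, 246 and 240 CPM in the control and 353, 323, 311 and 308 CPM in the resmetirom libraries. All resmetirom libraries were higher on this scale, at 0.32 (SE 0.087, adjusted p = 0.0600, and 0.0198 with DESeq2), but the change turned below 0 on the TPM scales, where it was not called. Kng1, which encodes the kininogen that kallikrein cleaves, had -0.014 (SE 0.090), but was called lower on the TPM scales, at -0.52 (adjusted p = 0.0291 with pseudocount 1). F9, the gene of factor IX, had -0.11, and was called lower by library sizes only, at -0.42 (adjusted p = 0.0124). Its log2(TPM + 1) values also gave a lower call, at -0.61 (adjusted p = 0.00634). F7 had 0.17 and was at 49.7 CPM in control replicate 2 against 30.8 to 30.9 CPM in the other control libraries. F7 and F10 lie 1.5 kb apart, and neither was called.

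Of the common pathway genes, F5 encodes the cofactor of factor X. It was at 299, 305, 376 and 335 CPM in the control and 422, 419, 398 and 385 CPM in the resmetirom libraries, without overlap. Its change was 0.30 (SE 0.092, adjusted p = 0.0910), which passed with DESeq2 (adjusted p = 0.0382) or when control replicate 3 was left out (adjusted p = 0.0460), and was below 0 with library sizes only (-0.0042) and on the TPM scales (-0.20). F2 (prothrombin) and F10 had 0.083 and 0.15, and F2 was called lower on the log2(TPM + 1) scale, at -0.42.

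The fibrinogen genes Fga, Fgb and Fgg lie side by side on chromosome 3 and encode the chains of 1 protein. Fga was at 3458, 3015, 2541 and 2180 CPM in the control and 3128, 2411, 5094 and 2996 CPM in the resmetirom libraries. Fgb was at 3057, 3046, 2544 and 2183 CPM in the control and 3133, 2654, 4576 and 2718 CPM in the resmetirom libraries. Fgg was at 3257, 3287, 2568 and 2193 CPM in the control and 2979, 2628, 4404 and 2770 CPM in the resmetirom libraries. Resmetirom replicate 3 was the highest library for Fga, Fgb and Fgg, and the groups overlapped for each. The changes were 0.28 (SE 0.23) for Fga, 0.27 (SE 0.18) for Fgb and 0.18 (SE 0.18) for Fgg, none of them called, and without resmetirom replicate 3 those of Fga and Fgb were 0.024 and 0.066 and that of Fgg was -0.018. The chains kept to each other more closely than to their level: Fgb per Fga was 0.488 to 0.603 and Fgg per Fga was 1.07 to 1.34 in TPM over all 8 libraries. F13b, the carrier subunit of the factor that crosslinks fibrin, had 0.25 (SE 0.10, adjusted p = 0.239).

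Among the anticoagulants, Serpinc1 (ENSMUSG00000026715, chr1:160978585-161005863, plus strand) encodes antithrombin, which inhibits thrombin and factor Xa. It was at 1102, 1107, 1063 and 1067 CPM in the control and 1509, 1454, 1414 and 1396 CPM in the resmetirom libraries. It was among the steadiest members, with coefficients of variation of 2.14% and 3.49%, and its groups did not overlap. The change was 0.41 (SE 0.077, adjusted p = 0.00895), which held without each library in turn, with a highest adjusted p of 0.0384. On other scales it was not called: library sizes only gave 0.11 (adjusted p = 0.512), and log2(TPM + 1) values gave -0.054 (adjusted p = 0.775). With library sizes only after removal of the Mup genes it was called, at 0.30 (adjusted p = 0.0391). Serpind1 (heparin cofactor II), Proc (protein C) and Pros1 (its cofactor protein S) had 0.16, -0.058 and 0.047 and were not called, although Proc was called lower with library sizes only (-0.37, adjusted p = 0.0263) and on the TPM scales (-0.55).

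The genes that govern fibrin breakdown moved in different directions. Serpinf2 (ENSMUSG00000038224, chr11:75431732-75439591, minus strand) encodes antiplasmin, the main inhibitor of plasmin. It was at 310, 408, 297 and 281 CPM in the control and 527, 510, 477 and 430 CPM in the resmetirom libraries, so the groups did not overlap. Its change was 0.58 (SE 0.12, adjusted p = 0.0155). Leaving out control replicate 3 or 4 ended the call (adjusted p = 0.0534 and 0.0649). So did scaling by library sizes only, at 0.29 (adjusted p = 0.161), and log2(TPM + 1) values, at 0.050 (adjusted p = 0.814).

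Cpb2 (ENSMUSG00000021999, chr14:75242287-75283555, plus strand) encodes a carboxypeptidase that removes plasmin's docking sites from fibrin and so slows its breakdown. It was at 334, 404, 350 and 328 CPM in the control and 258, 263, 259 and 239 CPM in the resmetirom libraries. Every resmetirom library was lower, and the change of -0.47 (SE 0.088, adjusted p = 0.00840) was called in all 19 alternatives. Plg, which encodes plasminogen, was at 1204, 1273, 1115 and 1068 CPM in the control and 1476, 1568, 1403 and 1337 CPM in the resmetirom libraries. These did not overlap, but Plg was not called, at 0.31 (SE 0.092, adjusted p = 0.0820). With DESeq2 it was called (adjusted p = 0.0277), and its change turned below 0 on the TPM scales.

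**Figure D4:**
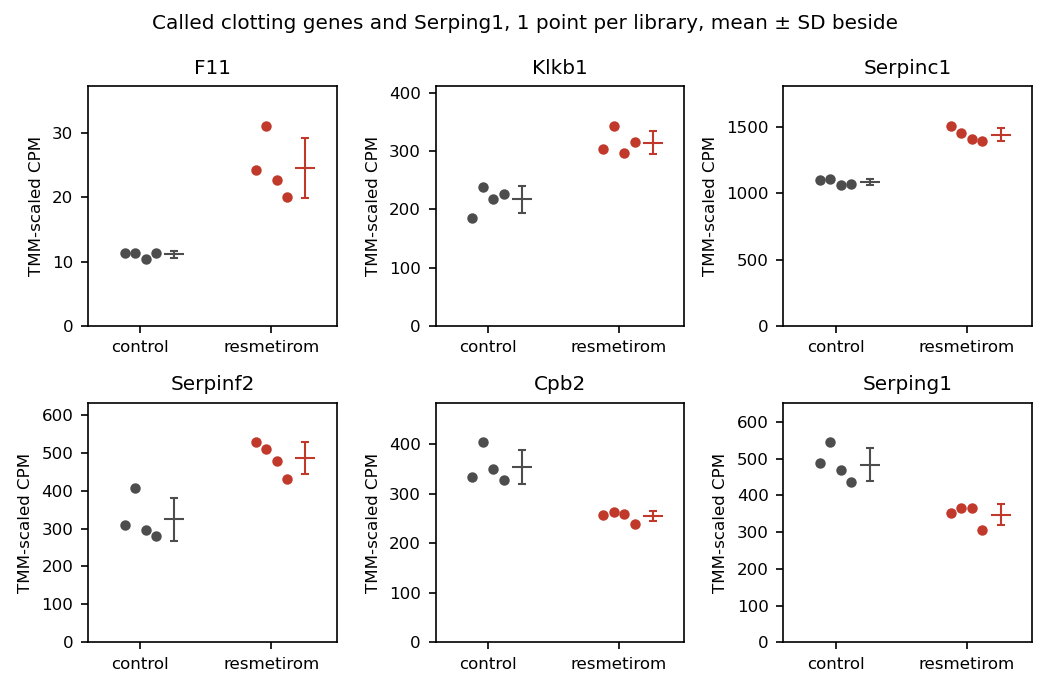
TMM-scaled CPM of the 5 called clotting genes and Serping1, with 1 point per library in the order of the replicate numbers and the mean ± SD (n = 4) beside each group, on axes that start at 0. F11 is near 11 CPM in all control libraries and at 20.1 to 31.1 CPM with resmetirom, while Cpb2 and Serping1 are lower in every resmetirom library; the rise of Serpinc1 turns below 0 on the TPM scales.

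Of the 10 called members, C6, C9, Serping1, F11 and Cpb2 were called in each of the 19 alternatives, Klkb1 and Serpinc1 in 16, Serpinf2 in 14, C8a in 12 and C8g in 11. In the authors' deposited table, whose fold changes are log2 ratios of mean TPM, 1 member had an adjusted p under 0.05 and a higher level (F11, 0.65) and 17 a lower level, beside 190 and 5192 genes of the whole table. The authors' deposited table gave C6 as -2.28, C8a as -2.49 and C9 as -2.29. The 27 members that were not called had changes of -0.78 to 0.32 with SEs of 0.076 to 0.31, and 8 of them had an unadjusted p under 0.05. Such a p was found for 18 of all 37 tested members, beside 2177 of all 12207 tested genes.

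**Figure D5:**
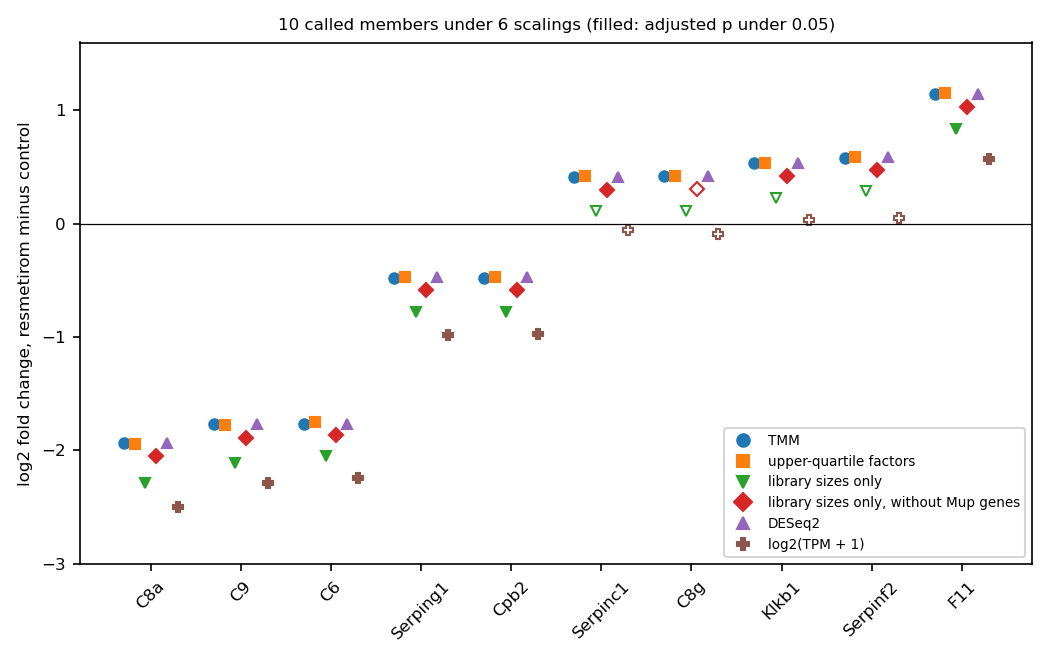
Log2 fold change of the 10 called members under 6 scalings, with filled symbols where the adjusted p is under 0.05. C8a, C9, C6, Serping1 and Cpb2 stay below 0 and F11 above 0 under all 6, whereas Serpinc1, C8g, Klkb1 and Serpinf2 lose their calls with library sizes only and in TPM units, and Serpinc1 and C8g turn below 0 in TPM units.

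Further genes of the pathways came from lists that hold no member. The counts of each list stand beside 2.6% of all tested genes called higher and 1.99% called lower. Of 26 other complement genes none was called higher and 2 lower, with a median of -0.077. These were C1s1, which encodes the protease C1s of the classical pathway, from 297 to 211 CPM (log2 fold change -0.50, SE 0.084, adjusted p = 0.00468), and Clu, which encodes clusterin, a fluid-phase inhibitor of the terminal complex, from 1034 to 687 CPM (-0.59, SE 0.10, adjusted p = 0.00573). Both were called in all 19 alternatives. The C1q genes of macrophages, C1qa, C1qb and C1qc, had -0.095, -0.21 and -0.35 and were not called. Of 21 other clotting genes that were tested, none was higher and 3 were lower, with a median of -0.036. Anxa2, which encodes a cell-surface receptor for plasminogen, had -1.18 (SE 0.19, adjusted p = 0.00428) and was called in all 19 alternatives.

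F8, which encodes factor VIII and is made by endothelial cells, had -0.61 (SE 0.16, adjusted p = 0.0473) and was called in 11 of 19 alternatives. The 7 sinusoidal endothelial markers, which include F8, all had changes below 0 with a median of -0.34, and they summed to 211 to 294 CPM in the control and 176 to 258 CPM in the resmetirom libraries. Their part in the result was not tested. Of 6 genes of vitamin K recycling and factor export, Vkorc1, the reductase that warfarin blocks, was called higher, at 0.34 (SE 0.087, adjusted p = 0.0491). That call was made in 3 of 19 alternatives, and the change was below 0 on the TPM scales.

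Of 17 liver transcription factor genes, among them Hnf4a, Cebpa and Stat5b, none was called in edgeR with TMM factors. With DESeq2 1 was higher and 1 lower. With library sizes only 4 were lower, or 1 once the Mup genes were removed, and 5 were lower on the log2(TPM + 1) scale. Foxa1 (-0.52, adjusted p = 0.0546) and Foxa3 (1.34, adjusted p = 0.134) did not overlap between the groups but were not called with TMM factors. Of 16 acute phase genes 3 were lower and none higher, with a median of -0.49: Saa3 (-1.41, SE 0.19, adjusted p = 0.00102), Orm2 (-1.95, SE 0.27, adjusted p = 0.00161) and Orm1 (-1.19, SE 0.17, adjusted p = 0.00296), each called in all 19 alternatives. The fibrinogen genes and C3 are themselves known as acute phase genes. Of 13 tested genes of other secreted hepatocyte proteins 4 were called higher, with a median of 0.14 (-0.37 on the log2(TPM + 1) scale): Rbp4 (0.69), Ahsg (0.61), Serpina1a (0.50) and Apoh (0.39), beside Serpinc1 at 0.41. None of the 4 was called with library sizes only or on the TPM scales, where Apoh was below 0.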

How the data were processed

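The deposited table held whole-number counts per gene for 8 mouse liver libraries, TPM values per the file headers, and a log2 ratio of mean TPM with its p-value and FDR, all computed by the authors and deposited together. Per the submitters' processing notes, the build was mm10 and the tools included HISAT2 2.1.0, RSEM, fastp 0.18.0, edgeR, StringTie 1.3.1, DESeq2 and Bowtie2 2.2.8, with no role or order stated. Strand handling and the authors' test are not given in the sources used here. No count column was left unmatched to a sample (0 columns).

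The deposited counts went into edgeR 4.0.16 (R 4.3.3) with TMM factors, the filterByExpr filter, a robust quasi-likelihood test of resmetirom against control and Benjamini-Hochberg adjustment over the 12207 genes that passed. Of 22013 genes, 5994 had no counts. The script was tested on simulated counts. There it recovered 16% of 50 genes changed 1.5-fold and 76% of 50 genes changed 2-fold. Of its 151 calls in the simulation 11 were false. An SE is the log2 fold change over the root of its F value. Alternatives were upper-quartile factors, library sizes only, DESeq2 1.42.0, limma-voom (limma 3.58.1), no filter, at least 1 CPM in 4 libraries, no robust estimation, limma on log2(TPM + 1) and log2(TPM + 0.1), the replicate number as a block, and each library left out. Library sizes only, without the Mup genes, was chosen after seeing the data. Coordinates come from GENCODE M21 (GRCm38), which held 99.2% of the table's gene IDs and all 38 members.

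The members and gene lists were chosen with earlier results of these data known. Members were given per library where they were called, where the groups did not overlap, or where they were among the 3 of highest mean TPM in each system, and C8b, Cfd and the fibrinogen genes as parts of their group. The others were given by value or range. Of the other lists, called genes were named, except that 1 is not reported here. Total counts of 16787561 to 19887539 per library leave counting error small for most tested members. It is larger for those with few counts, such as F11 with 228 to 245 counts per control library. No pair of libraries in a group was alike within sampling noise (chi-square per degree of freedom of at least 13.2).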

Additional observations from a re-analysis of the deposited data

Results flagged for a closer look

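In groups of 4 libraries, 6 of 76 had a highest or lowest library whose gap to the nearest other, divided by the range, was above Dixon's 95% critical value, and chance gives about 1 in 20. Control replicate 2 was high for C3, at 3745 CPM against 3021 to 3143 CPM in the other control libraries. It was also high for F7, at 49.7 CPM against 30.8 to 30.9 CPM, and for Serpind1, the gene of heparin cofactor II, at 390 CPM against 313 to 323 CPM. Resmetirom replicate 2 was high for Serpind1, at 452 CPM against 342 to 353 CPM. Control replicate 1 was low for F13b, at 132 CPM against 165 to 170.4 CPM. Control replicate 3 was low for F11, at 10.4 CPM against 11.3 to 11.4 CPM, a gap that is small beside the resmetirom values of 20.1 to 31.1 CPM. The F11 counts were 245, 236, 229 and 228 in control replicates 1 to 4, so this gap is within counting error.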

How the results depend on the processing

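With library sizes only, 151 genes were higher and 1961 lower, members 1 and 10, complement 0 and 7, clotting 1 and 3, and the medians were -0.35 for complement and -0.098 for clotting. With library sizes only and no Mup genes, 438 genes were lower, no complement gene (0) was higher and the clotting median was 0.10. With DESeq2, 523 genes were higher and 387 lower, members 8 and 8, with 7 clotting genes higher and 7 complement genes lower. On the log2(TPM + 1) scale 123 genes were higher and 4648 lower, members 1 and 16, complement 0 and 11, clotting 1 and 5, with medians of -0.53 and -0.28. On the log2(TPM + 0.1) scale these were 122 and 4608, 1 and 17, 0 and 12, 1 and 5, and -0.54 and -0.29. On these 2 scales 21 of the 24 members above 0 with TMM factors turned below 0. Among those called on either side, the direction reversed for Mbl1 (-0.38 on both), Masp2 (-0.45 on both), C8g (-0.088 and -0.089), F2 (-0.42 on both) and Serpinc1 (-0.054 on both), and for Cfb at pseudocount 0.1 (-0.40). Upper-quartile factors, limma-voom, both other count filters and the test without robust estimation moved none of these counts or medians past their limits. Apart from the scale itself, which sets the all-gene median, the cause was not tested.

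Leaving out 1 library at a time gave 182 to 313 genes higher and 149 to 238 lower, the fewest without control replicate 4. Members called were 3 to 5 higher and 4 to 5 lower. For complement these were 0 to 1 higher, the 1 (C8g) being lost without control replicate 4 or resmetirom replicate 3 or 4, and 3 to 4 lower. For clotting they were 3 to 4 higher and 1 lower. The medians ranged from -0.084 to 0.047 for complement and from 0.16 to 0.27 for clotting, so the sign of the complement median is not settled.

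With the replicate number as a block, 240 genes were higher and 166 lower, 4 members were higher and 4 lower, and 0 complement genes were higher, with C8a (adjusted p = 0.0595) and C8g (adjusted p = 0.0683) no longer called. The labels do not say what the numbers mean. Deviations of same-numbered libraries correlated at -0.34 to 0.23, and 2 of 8 libraries correlated best with their own number. So few libraries do not settle whether the numbers pair them. With 4 libraries a group, absence of a call for members with SEs of up to 0.31 does not show that they were equal.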
